A study of Mus musculus with 12 samples.

Results

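Adipokines are hormones and other signalling proteins that fat cells release into the blood. The 7 classical adipokine genes Lep, Adipoq, Retn, Cfd, Rbp4, Nampt and Agt were taken by name from the gene table of a total RNA-seq experiment on iBAT, the brown fat between the shoulder blades. Each name matched 1 row, so they make up 7 of the 61210 genes in the table. The 12 libraries fall into 4 groups of 3: control diet (NCD) at room temperature, NCD in the cold, high-fat diet (HFD) at room temperature and HFD in the cold. All mice were wild type C57BL/6N and 20 weeks old, and all ate chow (Ssniff V1554) until they were 8 weeks old. For the last 12 weeks the HFD groups instead received the diet Ssniff D12492 (I) mod., and the cold groups spent 24 h at 4 °C. The sex of the mice and the number of mice behind a library are not given in the labels, so the p-values below measure the spread between libraries.

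Brown adipocytes burn lipid to make heat through the uncoupling protein UCP1, and cold switches this programme on through sympathetic nerves. White adipocytes store lipid and are the classical source of leptin, adiponectin and resistin, and brown adipocytes express several of the same genes. Leptin (Lep) signals the size of the fat stores to the brain, adiponectin (Adipoq) favours insulin action, and resistin (Retn) is an adipocyte hormone in mice that opposes it. Adipsin (Cfd) is complement factor D, the protease that cleaves factor B in the alternative complement pathway. Rbp4 carries retinol in the blood, Nampt makes nicotinamide mononucleotide in the salvage of NAD, and Agt is the precursor of the angiotensins.

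Start regions are shown for 4 of these genes, Lep, Adipoq, Retn and Cfd. Lep and Adipoq were lower in the cold on HFD, and Retn was higher there. Retn and Cfd were lower on HFD when both temperatures were averaged. Rbp4 was lower in both of these comparisons too, but its sequence is not printed. The windows run from 250 bases before the annotated start to 50 bases after it, 5′ to 3′ on the strand of the gene, and come from RefSeq on GRCm38.p6. All 7 genes had a window, and Rbp4 had 2. Capitals mark matches to TTGCNNAA (a C/EBP site), CCAAT (the CCAAT box) or TATAA (the TATA box), each searched on both strands.
Lep (chr6:29059971-29060270, plus strand): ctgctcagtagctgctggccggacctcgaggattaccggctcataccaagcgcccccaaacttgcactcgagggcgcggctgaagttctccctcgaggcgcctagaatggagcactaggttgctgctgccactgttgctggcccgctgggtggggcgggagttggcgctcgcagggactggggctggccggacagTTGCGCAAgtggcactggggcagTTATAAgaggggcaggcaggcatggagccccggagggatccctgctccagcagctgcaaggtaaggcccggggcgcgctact
Adipoq (chr16:23146286-23146585, plus strand): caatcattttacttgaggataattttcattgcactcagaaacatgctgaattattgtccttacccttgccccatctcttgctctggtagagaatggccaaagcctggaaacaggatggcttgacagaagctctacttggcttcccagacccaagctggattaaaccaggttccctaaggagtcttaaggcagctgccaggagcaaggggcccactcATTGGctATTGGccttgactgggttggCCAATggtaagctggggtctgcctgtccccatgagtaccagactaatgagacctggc
Retn (chr8:3655520-3655819, plus strand): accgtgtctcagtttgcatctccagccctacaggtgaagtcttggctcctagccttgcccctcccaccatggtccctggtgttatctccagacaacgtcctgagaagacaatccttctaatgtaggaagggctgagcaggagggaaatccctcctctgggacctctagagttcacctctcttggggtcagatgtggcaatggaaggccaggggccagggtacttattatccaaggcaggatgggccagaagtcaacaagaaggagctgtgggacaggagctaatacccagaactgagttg
Cfd (chr10:79890603-79890902, plus strand): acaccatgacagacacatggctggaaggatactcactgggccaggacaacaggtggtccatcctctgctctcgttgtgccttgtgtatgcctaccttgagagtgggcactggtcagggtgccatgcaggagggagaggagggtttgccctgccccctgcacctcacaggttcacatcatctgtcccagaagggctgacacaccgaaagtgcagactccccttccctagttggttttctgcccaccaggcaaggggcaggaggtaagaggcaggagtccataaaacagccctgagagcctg
The Lep window holds the palindrome TTGCGCAA at bases 196 to 203, counted from 1 at the 5′ end of the window, and overlapping matches of the TATA box on both strands at bases 219 to 224. The Adipoq window holds the CCAAT box 3 times, at bases 217 to 221 and 224 to 228 on the minus strand and at bases 244 to 248 on the plus strand, and the Retn and Cfd windows hold none of these letters. Of the other windows, 1 of Rbp4 holds TTATGCAA and a TATA box, the other of Rbp4 a CCAAT box, that of Agt a TATA box and that of Nampt none. Among all 32851 windows, 10.8% hold a C/EBP site, 37.4% a CCAAT box and 24.9% a TATA box, so these matches only describe the letters.

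The genes lie on several chromosomes (coordinates of GENCODE M21 on GRCm38). Lep (QNCMUSG00044976) spans bases 29060220 to 29073877 of chromosome 6, Adipoq (QNCMUSG00021995) 23146536 to 23158028 of chromosome 16 and Cfd (QNCMUSG00005310) 79890853 to 79892655 of chromosome 10. Retn (QNCMUSG00052247) spans 3655770 to 3660110 and Agt (QNCMUSG00055270) 124556534 to 124569706 of chromosome 8. Rbp4 (QNCMUSG00029216) spans 38116629 to 38125281 of chromosome 19, and Nampt (QNCMUSG00011171) 32819545 to 32853349 of chromosome 12. Agt and Rbp4 are on the minus strand. Counts were made over the exons of whole genes, and Nampt alone overlaps another gene, the lincRNA Gdap10 on the same strand, with which its reads may be shared.

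Library totals ran from 15136861 to 46740702 counts. The labels assign the replicates numbered 1 and 2 to batch 1 (8 libraries, median 18240838) and those numbered 3 to batch 2 (4 libraries, median 40328346). Expression is given as CPM, the count of a gene scaled to a common library size with edgeR's TMM factors. The brown fat regulators Zic1 (4.89 to 16.1 CPM) and Lhx8 (1.42 to 3.61 CPM) were present in every library, whereas Hoxc9, Hoxc10 and Tcf21, which mark white fat depots, had 0 to 4 counts a library. The cold groups were also set apart by Ucp1, which rose by 1.96 log2 units (SE 0.17, adjusted p = 0.000274) on NCD and by 0.92 (SE 0.17, adjusted p = 0.00656) on HFD in edgeR's quasi-likelihood test. Summed skeletal muscle markers differed widely between replicates, from 642 to 19679 CPM, and were highest in replicate 2 of both NCD groups and replicate 3 of both HFD groups.

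Per kilobase of exon, Adipoq was the most abundant of the 7, at a mean level over all libraries of 379 CPM per kb (range 207 to 497). Cfd followed with 115 CPM per kb (48.6 to 274), then Nampt with 79.1 (54.4 to 113), Lep with 34.3 (3.02 to 80.4), Rbp4 with 31.6 (10.02 to 53.8) and Retn with 14.0 (4.70 to 27.6). The ranges of neighbours in this order from Cfd to Retn overlapped, and the order differed between groups. In the cold, mean Lep was below Retn on NCD (13.3 against 16.5 CPM per kb) and on HFD (7.44 against 9.39), and on HFD in the cold mean Nampt was above Cfd (70.8 against 63.1). Single libraries went the other way. In replicate 3, Lep was above Retn on NCD in the cold (32.4 against 18.1) and on HFD in the cold (12.5 against 8.43). In replicate 1 of HFD in the cold, Nampt was below Cfd (55.1 against 84.2). Agt was close to the detection limit with 0.514 CPM per kb (0.0931 to 1.12), from 4 to 75 counts a library.

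**Figure D1:**
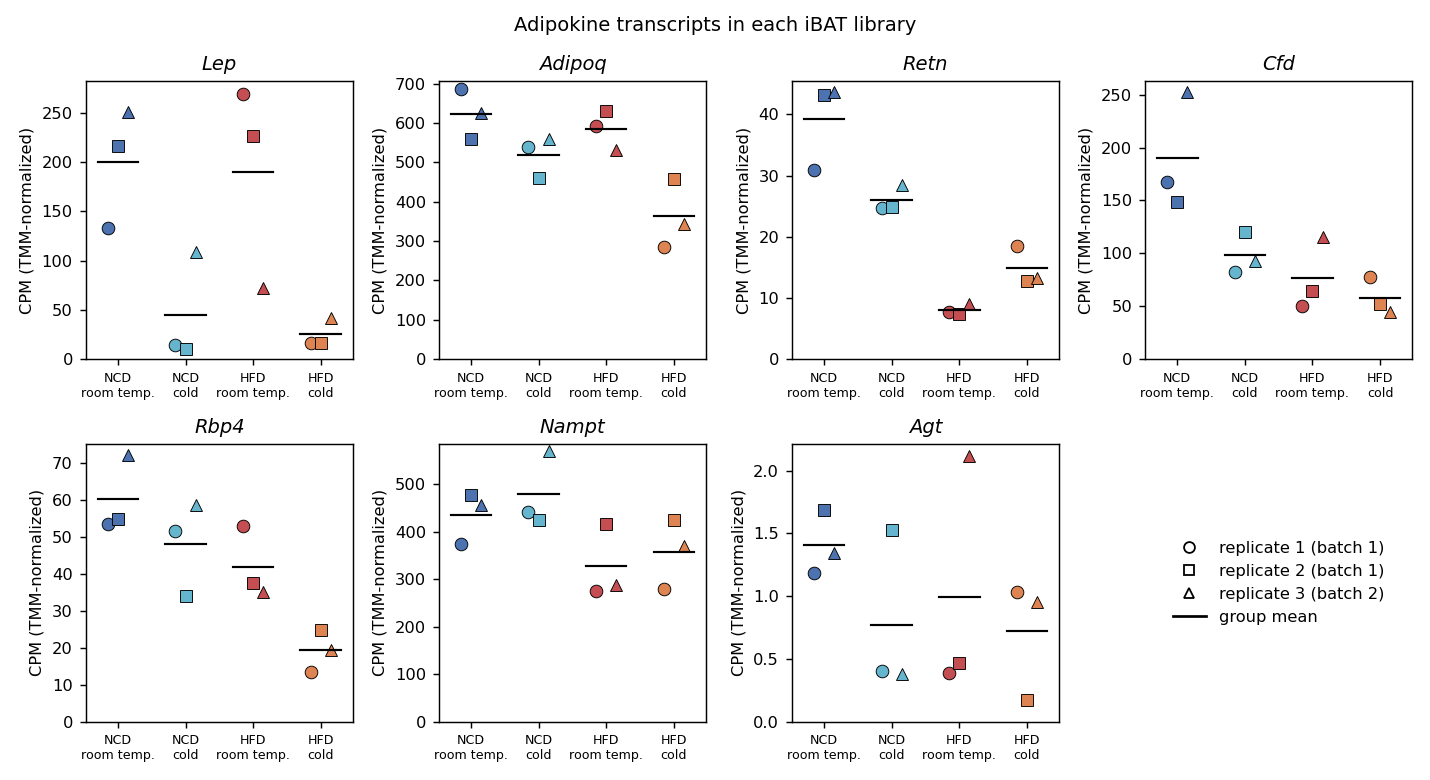
CPM of the 7 adipokine genes (vertical axes, each from 0) in the 4 groups, with 1 point for each library, the marker giving the replicate and batch, and a line at the group mean. Lep separates by batch within the cold groups (replicate 3 at 109 and 42.0 CPM), Retn is lowest on HFD at room temperature (7.42 to 8.98 CPM), and Rbp4 and Adipoq are lowest on HFD in the cold.

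Each comparison was made in 1 edgeR fit of the 4 group means over 16737 tested genes, all 7 adipokines among them. To pass, a gene needed a log2 fold change beyond 0.5 in either direction and a Benjamini-Hochberg adjusted p below 0.05. In iBAT, fewer cells of a type and less RNA per cell cannot be told apart. Cold on HFD changed 4 of the 7: Retn rose, and Lep, Adipoq and Rbp4 fell. Of all tested genes, 5.39% were higher and 4.19% lower in this comparison. Cold on NCD changed 0 of the 7 by this test, while 3.72% of all genes were higher and 2.55% lower. With same-numbered libraries of a diet as a block, cold on NCD passed 2 of the 7 (Lep and Retn) and 1483 of all 16737 genes. That block was chosen from correlations in these same libraries. With the skeletal muscle marker level as a covariate instead, 0 of the 7 and 1125 of all genes passed. At an unadjusted p under 0.05, 3 of the 7 (Lep, Retn and Cfd) were lower on NCD in the cold, as against 3670 of all genes in either direction, and DESeq2 passed 2 (Retn and Cfd) and 1452 of all genes.

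HFD at room temperature lowered 1 of the 7, Retn, where 0.992% of all genes were higher and 1.09% lower. HFD in the cold lowered 2, Retn and Rbp4, where 2.06% of all genes were higher and 2.69% lower. The groups did not overlap for 4 adipokines in cold on NCD (27.8% of all genes), 4 in cold on HFD (30.3%), 3 in HFD at room temperature (25.9%) and 4 in HFD in the cold (25.2%). Of these 15 gaps between groups, the rise of Retn in the cold on HFD was the single one upwards. The median log2 fold change of the 7 was -0.59, -0.51, -0.43 and -0.76 in the 4 comparisons in that order, beside -0.01, -0.04, 0.03 and 0.02 for all genes tested.

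Averaged over both diets, cold lowered 2 of the 7 (Lep and Rbp4), where 6.09% of all genes were higher and 6.6% lower. Averaged over both temperatures, HFD lowered 3 (Retn, Cfd and Rbp4), where 4.24% were higher and 3.55% lower. The 4-group test, at an adjusted p under 0.001, passed Retn alone of the 7 and 2.55% of all genes. The interaction of diet and temperature, which asks whether cold acts differently on the 2 diets, passed 0 of the 7 and 0% of all genes in edgeR. At an unadjusted p under 0.05 it held 1091 genes, Retn alone among the 7, and DESeq2 passed 51 genes, Retn again alone among the 7.

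**Figure D2:**
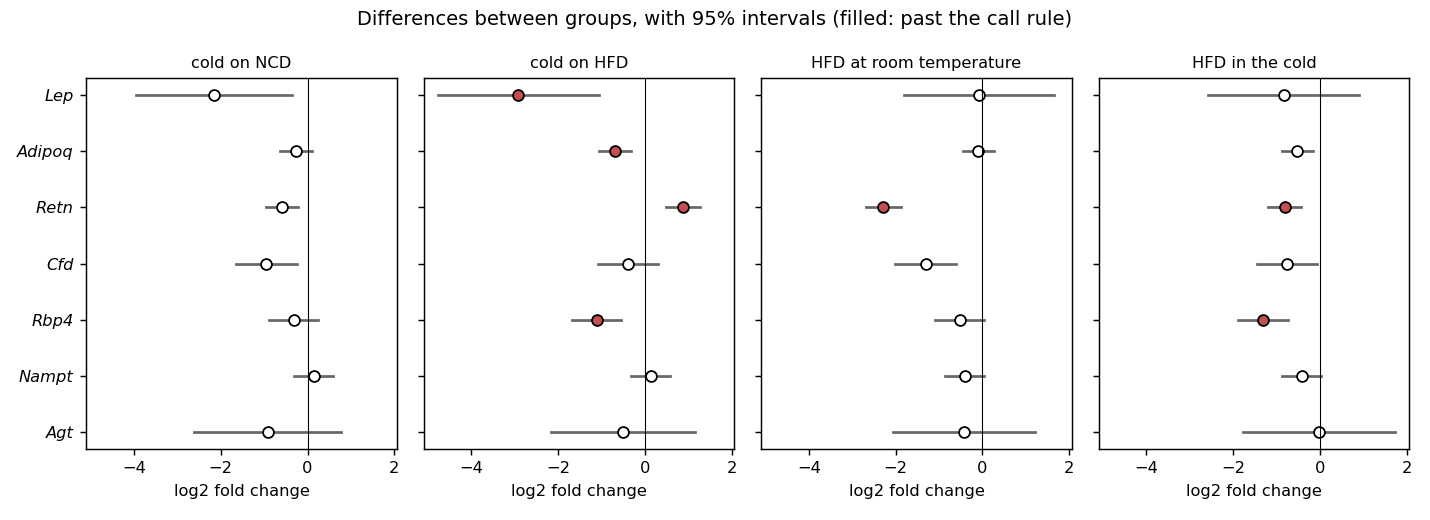
Log2 fold changes (horizontal axes) of the 7 adipokine genes in the 4 comparisons, with 95% intervals from the edgeR fit, filled points having passed the test. The intervals of Lep span more than 3 log2 units in every panel, and Retn is the gene with filled points on both sides of 0.

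Lep was several-fold lower in the cold on both diets, with wide spread between replicates. On NCD, its level was 133, 217 and 251 CPM at room temperature and 14.6, 10.1 and 109 CPM in the cold (replicates 1 to 3). On HFD, it was 269.5, 227 and 72.5 CPM at room temperature and 16.6, 16.3 and 42.0 CPM in the cold. Every cold library lay below every room temperature library of the same diet, and replicate 3 was the highest of each cold group but the lowest of HFD at room temperature. The fall on HFD was 2.92 log2 units (SE 0.85, 95% interval -4.77 to -1.06, adjusted p = 0.0473 in edgeR's quasi-likelihood test), a fold of 7.55. On NCD the log2 fold change was -2.16 (SE 0.82, -3.96 to -0.36), with an adjusted p of 0.142. When same-numbered libraries of a diet were treated as pairs (a block), the NCD value was -2.89 with an adjusted p of 0.0431. Averaged over diets, Lep fell by 2.54 log2 units (SE 0.59, adjusted p = 0.0105), and this held in each of the 12 fits that left out 1 library.

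Within batch 1, the cold difference of Lep was -3.82 log2 units on NCD (adjusted p = 0.0114) and -3.92 on HFD (adjusted p = 0.0178), both from edgeR. Within batch 2, which holds 1 library a group and so has no test, it was -1.21 and -0.79. Without replicate 3 of NCD in the cold, the NCD value was -4.01 (adjusted p = 0.0106). On HFD, the call was lost when any of 8 libraries was left out (each from NCD at room temperature, each from HFD in the cold, and replicates 1 and 2 of HFD at room temperature), with adjusted p up to 0.15, while the fold change stayed between -3.53 and -2.53. No difference of Lep with HFD was detectable, at -0.08 (95% interval -1.80 to 1.64) at room temperature and -0.84 (-2.58 to 0.91) in the cold, and with library totals in place of TMM the first value was 0.10.

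Retn followed diet first. On NCD at room temperature its level was 31.0, 43.1 and 43.6 CPM, and on HFD at room temperature 7.73, 7.42 and 8.98 CPM. In the cold it was 24.8, 24.9 and 28.5 CPM on NCD and 18.5, 12.7 and 13.3 CPM on HFD. The groups did not overlap in any of the 4 comparisons, so that all 4 groups were ordered, from NCD at room temperature through NCD in the cold and HFD in the cold to HFD at room temperature. HFD lowered Retn by 2.28 log2 units at room temperature (SE 0.18, adjusted p = 0.000235 in edgeR's quasi-likelihood test), a fold of 4.87, and by 0.82 in the cold (SE 0.17, adjusted p = 0.0252). By p-value, Retn ranked 2 among the 16737 genes for HFD at room temperature. That fall passed in each of the 12 fits without 1 library and in the other 14 settings tried, and it was -2.29 within batch 1 (adjusted p = 0.0329) and -2.27 within batch 2.

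The cold difference of Retn went opposite ways on the 2 diets. On HFD, Retn rose by 0.88 log2 units (SE 0.18, 95% interval 0.49 to 1.27, adjusted p = 0.00982 in edgeR), and on NCD its log2 fold change was -0.59 (SE 0.17, -0.97 to -0.21, adjusted p = 0.0613). Treated as pairs, the NCD libraries gave -0.58 with an adjusted p of 0.0412. The NCD difference also passed without replicate 1 of NCD at room temperature (-0.73, adjusted p = 0.0429) and without replicate 1 of HFD in the cold (-0.62, adjusted p = 0.0265). The interaction was 1.47 log2 units (SE 0.25, 0.93 to 2.01), with an unadjusted p of 8.62e-05 and an adjusted p of 0.16 in edgeR. It ranked 9 among all genes by p-value. DESeq2 gave 1.48 with an adjusted p of 6.36e-05. Within batch 1 the cold differences were -0.58 on NCD and 1.04 on HFD (adjusted p = 0.203 and 0.0602), and within batch 2 they were -0.61 and 0.56, with no test. The fall of Retn with HFD in the cold was lost without any of 4 libraries (replicates 1 and 3 of NCD in the cold, replicates 2 and 3 of HFD in the cold), with log2 values of -0.86 to -0.72 and adjusted p of 0.0541 to 0.0872.

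Adipoq was high in every library and lowest on HFD in the cold. Its level was 687, 559.7 and 626 CPM on NCD at room temperature, 540.1, 461 and 558 CPM on NCD in the cold, 591, 630.3 and 531 CPM on HFD at room temperature and 286, 459 and 344 CPM on HFD in the cold. All HFD cold libraries lay below all libraries of the other groups. Cold on HFD lowered Adipoq by 0.69 log2 units (SE 0.17, adjusted p = 0.0232 in edgeR), a fold of 1.61. On NCD the cold difference was -0.26 (95% interval -0.63 to 0.10), and the test of the difference between the diets gave -0.42 (adjusted p = 0.807). The HFD call was lost without replicate 1 or 2 of HFD at room temperature or replicate 1 or 3 of HFD in the cold, with log2 values of -0.65 to -0.52 and adjusted p of 0.0654 to 0.0878. Averaged over diets, the cold difference was -0.48 (adjusted p = 0.0144), short of the 0.5 the rule asks for. Within batch 1 the cold difference on HFD was -0.71 (adjusted p = 0.138) and within batch 2 it was -0.63. HFD in the cold gave -0.52 for Adipoq (adjusted p = 0.0931), and without replicate 2 of HFD in the cold -0.72 (adjusted p = 0.0213).

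Rbp4 showed the same order of groups as Adipoq at its lowest end. Its level was 53.6, 54.9 and 72.3 CPM on NCD at room temperature and 51.8, 34.1 and 58.6 CPM on NCD in the cold. On HFD it was 53.1, 37.6 and 35.1 CPM at room temperature and 13.5, 25.0 and 19.5 CPM in the cold, so that the HFD cold group lay below all other libraries. Cold on HFD lowered Rbp4 by 1.12 log2 units (SE 0.26, adjusted p = 0.0197), a fold of 2.17, and HFD in the cold lowered it by 1.32 (SE 0.26, adjusted p = 0.0179), a fold of 2.50, both by edgeR's quasi-likelihood test. On NCD the cold difference was -0.32 (-0.88 to 0.24). Within batch 1 the cold difference on HFD was -1.24 (adjusted p = 0.086) and that of HFD in the cold -1.16 (adjusted p = 0.19), and within batch 2 they were -0.85 and -1.59. The fall with cold on HFD was lost without replicate 1 of HFD at room temperature or replicate 1 or 3 of HFD in the cold (log2 values of -1.12 to -0.88, adjusted p of 0.0603 to 0.0739). The fall with HFD in the cold was lost without replicate 1 or 3 of either cold group (-1.32 to -1.09, adjusted p of 0.0632 to 0.0759). Averaged over diets, the cold difference of Rbp4 was -0.72 (adjusted p = 0.0164 in edgeR). Averaged over temperatures, its HFD difference was -0.92 (adjusted p = 0.00906). Both passed in each of the 12 fits without 1 library, but not within batch 1 (-0.79 and -0.71, adjusted p = 0.0607 and 0.112). With the white marker level as a covariate, the averaged HFD difference did not pass (-0.83, adjusted p = 0.101).

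Cfd was highest on NCD at room temperature, at 168, 149 and 253 CPM. It was 82.3, 119.9 and 93.0 CPM on NCD in the cold, 50.5, 64.6 and 115 CPM on HFD at room temperature and 77.7, 52.1 and 44.8 CPM on HFD in the cold. The first group lay above all other libraries, and the other groups overlapped in part. Averaged over temperatures, HFD lowered Cfd by 1.03 log2 units (SE 0.22, adjusted p = 0.0135 in edgeR), and by 1.05 within batch 1 (adjusted p = 0.0292). This fall passed in each fit without 1 library. With the white marker level as a covariate it did not pass (-1.16, adjusted p = 0.0782), in a fit that passed 436 of all genes against 1305 without the covariate. At room temperature alone the HFD difference was -1.31 (SE 0.32) with an adjusted p of 0.0602. Without replicate 3 of HFD at room temperature, a library with 19679 CPM of muscle markers, it was -1.72 with an adjusted p of 0.0278. The cold difference of Cfd was -0.95 on NCD (adjusted p = 0.0964, and 0.0461 without replicate 3 of HFD at room temperature) and -0.40 on HFD (adjusted p = 0.438). Within batch 1 the cold difference on HFD was 0.17 and within batch 2 it was -1.36, so the batches differed in sign.

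Nampt and Agt passed no comparison. Nampt was measured at 373, 477 and 456 CPM on NCD at room temperature, 442, 425 and 570.3 CPM on NCD in the cold, 275, 417 and 288 CPM on HFD at room temperature and 279, 425 and 369 CPM on HFD in the cold. Its groups overlapped in all 4 comparisons. Averaged over temperatures its HFD difference was -0.42 log2 units (95% interval -0.73 to -0.10, adjusted p = 0.0777 in edgeR), and it passed at -0.53 (adjusted p = 0.0375) without replicate 2 of HFD at room temperature. The cold difference of Nampt was 0.14 on NCD (-0.31 to 0.58) and 0.13 on HFD (-0.31 to 0.57). Agt was at 0.176 to 2.12 CPM, and within single groups its highest library held up to 5.88 times the level of its lowest. The 95% interval of its log2 difference was -2.61 to 0.78 for cold on NCD and -1.77 to 1.73 for HFD in the cold, so that differences of several fold could not be detected.

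**Figure D3:**
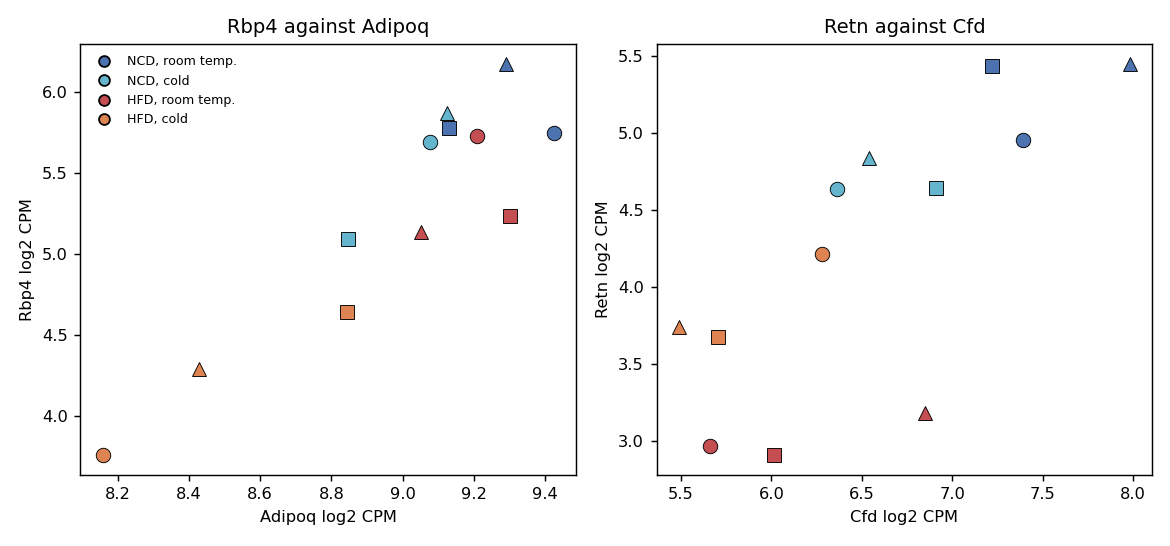
Log2 CPM of Rbp4 against Adipoq (left) and of Retn against Cfd (right) in the 12 libraries, coloured by group, with circles, squares and triangles for replicates 1, 2 and 3. Rbp4 and Adipoq fall together towards the 3 HFD cold libraries. The Retn values of HFD at room temperature (2.91 to 3.18) lie below those of HFD in the cold. Their Cfd values overlap (5.66 to 6.85 at room temperature, 5.49 to 6.28 in the cold).

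Across the 12 libraries, the pair of adipokines with the most similar log2 CPM was Adipoq and Rbp4 (r = 0.90, and r = 0.72 for the deviations from the group means). Retn and Cfd followed with r = 0.75 (0.56 within groups). Lep and Retn were unrelated over the 12 libraries (r = 0.00). These values share libraries and scaling and carry no test. The other genes compared were 16412 tested genes with a mean of at least 10 counts, before normalization. Those most like Lep were Fam110b (r = 0.97), Epn2 (0.94) and Stk39 (0.94), and those most like Adipoq were Echdc3 (0.99), Gcsh (0.99) and Lgals1 (0.97). For Rbp4 they were Sh3bgrl (0.98), Thrsp, which is a lipogenic gene (0.98), and Atg9b (0.98). For Retn they were Ccdc159 (0.96), an unnamed gene (QNCMUSG00058145, 0.92) and Gpx8 (0.92), whose deviations within groups gave r = 0.34, -0.83 and -0.10, so that the likeness to Retn lay between the groups. For Cfd they were Haus1, Phykpl and Cp (0.91 to 0.92), for Nampt Maco1, Mlst8 and A930017M01Rik (0.95 in each), and for Agt Aebp1, C7 and Retreg1 (0.91 to 0.92).

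The genes around the adipokines were counted in lists. Of 8 receptors and partners of leptin, adiponectin and resistin, Cdh13, which binds adiponectin at the cell surface, rose with cold on HFD by 0.75 log2 units (adjusted p = 0.0289 in edgeR). Tlr4, a receptor that resistin can engage, fell with cold on NCD by 0.68 (adjusted p = 0.0314), at 23.0, 21.4 and 19.8 CPM against 14.0, 12.8 and 13.2 CPM. With HFD in the cold, Tlr4 was higher by 0.71 (adjusted p = 0.035). Adipor2, with the highest mean CPM of this list (CPM is not corrected for length), passed no comparison (699 to 1214 CPM), and no gene of the list passed for HFD at room temperature. Of 6 genes for the assembly and secretion of adiponectin, Ero1l, an oxidase of the endoplasmic reticulum, rose with cold on HFD by 1.16 (adjusted p = 0.00573) and Gstk1 fell by 0.56 (adjusted p = 0.0486), with 0 passing in the other 3 comparisons. Plod1, with the highest mean CPM of them, passed none (64.8 to 118 CPM). Ero1l had 39.7, 34.2 and 35.9 CPM at room temperature and 117, 60.1 and 68.6 CPM in the cold on HFD.

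Among the relatives of the adipokines, of 9 C1q/TNF paralogs of adiponectin, 0 passed in any of the 4 comparisons by edgeR, with 1 to 3 at an unadjusted p under 0.05 in each (3033 to 4595 of all 16737 genes) and 3 passes over all 4 comparisons by DESeq2. C1qtnf12 had the highest mean CPM of them (37.3 to 98.0 CPM). Of the 3 resistin-like genes, Retnla was tested and passed narrowly as lower with cold on HFD, at -1.18 log2 units (adjusted p = 0.0468 in edgeR), from 3.16, 5.54 and 6.18 CPM to 1.98, 1.89 and 2.70 CPM. On NCD its value was -1.18 too, without passing. No resistin-like gene passed in 10 of the 12 fits without 1 library, nor with batch or the replicate block as a term, with either marker covariate, with library totals in place of TMM or in batch 1 alone. Retnlb had at most 1 count and Retnlg at most 20 counts in a library.

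The partners of Cfd, Rbp4, Nampt and Agt gave further single genes. In the alternative complement pathway (8 of 9 genes tested), C3, the substrate of the convertase that Cfd helps to form, rose with cold on HFD by 0.95 log2 units (adjusted p = 0.0211 in edgeR), from 333, 329 and 357 CPM to 399, 693 and 874 CPM. Cd55, which protects cells from this convertase, fell by 0.78 (adjusted p = 0.0369). In retinol handling (7 of 13 tested), Rbp7, a retinoid-binding protein of the cell interior, rose with cold on both diets, by 1.90 on NCD (adjusted p = 0.00369) and 1.59 on HFD (adjusted p = 0.00581). Rbp7 had 10.1, 8.14 and 11.6 CPM at room temperature and 37.0, 45.8 and 29.1 CPM in the cold on NCD. In NAD salvage (11 of 11 tested), Nnmt, which methylates nicotinamide, rose by 2.19 on NCD (adjusted p = 0.00734) and 2.73 on HFD (adjusted p = 0.0017). Nnmt had 13.1, 20.2 and 13.8 CPM at room temperature and 64.9, 84.4 and 162 CPM in the cold on HFD, whereas Nampt did not pass. Cd38, which consumes NAD, rose with cold on HFD by 0.78 (adjusted p = 0.0199), and Nadk, with the highest mean CPM of this list, passed none (194 to 368 CPM).

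In the renin-angiotensin list (5 of 10 tested), Atp6ap2, the prorenin receptor and a partner of the proton pump, rose with cold on HFD by 0.89 log2 units (adjusted p = 0.00188 in edgeR). Lnpep, with the highest mean CPM, passed none (267 to 414 CPM). Among other adipokines (10 of 15 tested, Asip absent from the table), Rarres2, which encodes chemerin, rose with HFD by 0.78 at room temperature (adjusted p = 0.0028) and 0.76 in the cold (adjusted p = 0.00206). Its level was 32.2, 29.8 and 31.4 CPM on NCD and 51.0, 60.4 and 48.8 CPM on HFD at room temperature, the opposite direction to Retn. Metrnl rose with HFD in the cold by 0.63 (adjusted p = 0.0366), and Lcn2 rose with cold on HFD by 1.87 (adjusted p = 0.0456) from 9 to 102 counts a library over all groups. Lcn2 reached 2.93 and 2.38 CPM in replicates 1 and 3 of HFD in the cold, against 0.793 CPM in replicate 2. Angptl4, with the highest mean CPM of this list, passed none (59.5 to 256 CPM).

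**Figure D4:**
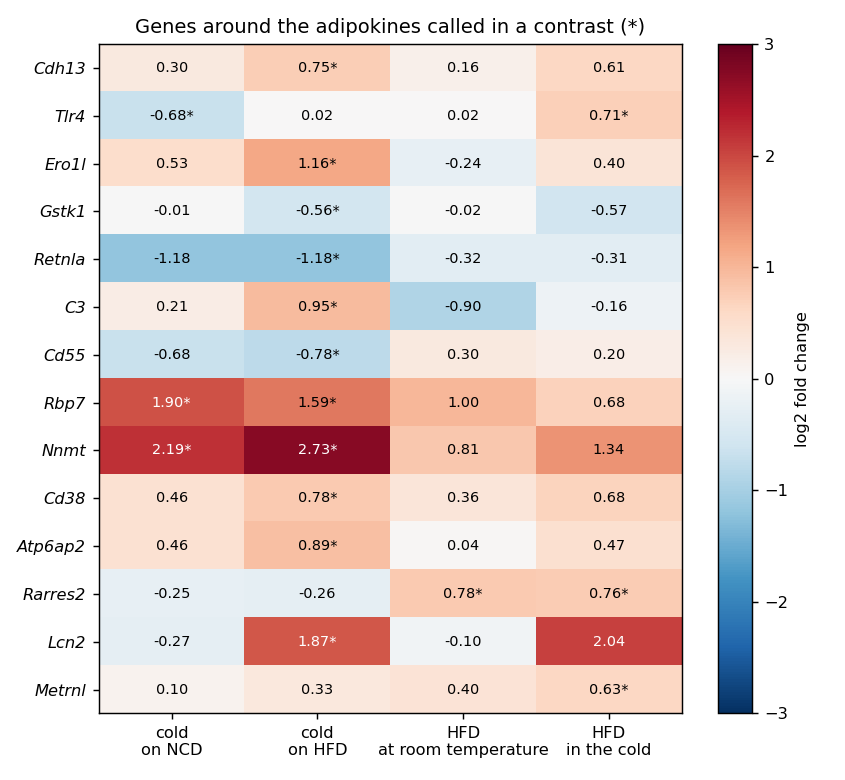
Log2 fold changes (colour and printed value) of the 14 list genes that passed in at least 1 of the 4 comparisons, with an asterisk where a gene passed. Cold on HFD holds 11 of the 18 asterisks, where Nnmt (2.73) has the largest rise, followed by Lcn2 (1.87) and Rbp7 (1.59). This comparison also passed the most of all 16737 genes, at 1603. Cold on NCD passed 1049, HFD at room temperature 349 and HFD in the cold 795.

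The replicates of a group may differ in white fat content, since several of the adipokines are strong in white fat. Of 10 white adipocyte markers that hold none of the 7 adipokines, Hoxc9, Hoxc10 and Tcf21 were at or near 0 in all libraries, and Hoxc8 was at 3.35 to 5.66 CPM without passing any comparison. Npr3, the natriuretic peptide clearance receptor, made up most of the summed level and rose in all 4 comparisons by 1.00 to 1.19 log2 units (adjusted p of 0.0149 to 0.022 in edgeR). Mest and Sncg rose with HFD in the cold, by 2.40 (adjusted p = 0.0104) and 1.38 (adjusted p = 0.0491). Slc7a10, Nnat and Wfdc21 passed none of the 4. Of the 7 tested white markers, 3 were higher in HFD in the cold and 1 in each other comparison, and 0 were lower.

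The mean log2 CPM of the white markers was 1.17 ± 0.23 (SD, n = 3) on NCD at room temperature, 0.99 ± 0.15 (SD, n = 3) on NCD in the cold, 1.26 ± 0.13 (SD, n = 3) on HFD at room temperature and 1.59 ± 0.33 (SD, n = 3) on HFD in the cold. The 3 HFD cold libraries lay above the 3 NCD cold libraries (two-sided exact permutation test, p = 0.1, the smallest that 3 against 3 can give, and 0.4 adjusted over the 4 comparisons), and the other 3 comparisons overlapped (exact p of 0.3 to 0.6). With the Hoxc genes and Tcf21 alone, the difference was -0.045 for HFD in the cold, and for cold on HFD it went from 0.33 to -0.15. Hoxc9, Hoxc10 and Tcf21 were near the detection limit in every library. Their mean with Hoxc8 could therefore hardly move and gives no test of white fat content. With the white marker level as a covariate, 0 adipokines passed for cold on HFD (adjusted p of 0.0575 to 0.109 for the 4 that had passed) and 0 for HFD in the cold, while for cold on HFD the log2 fold changes were -3.83 for Lep, -0.55 for Adipoq, 0.76 for Retn and -1.02 for Rbp4. For HFD in the cold they were -1.02 for Retn and -1.15 for Rbp4 (adjusted p = 0.255 and 0.359). In that fit 13 genes of all 16737 passed for HFD in the cold, against 795 without the covariate. For cold on HFD 795 passed, against 1603 without it. The covariate differs between the groups compared, so its part cannot be told apart from theirs.

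Within groups, no relation of an adipokine to the white markers passed the test. Over the 12 libraries, deviations from the group means gave Pearson r of 0.38 for Lep, -0.44 for Adipoq, 0.34 for Retn, 0.16 for Cfd, -0.17 for Rbp4, 0.27 for Nampt and 0.51 for Agt, with Spearman rho of 0.43, -0.38, 0.27, 0.03, -0.16, 0.29 and 0.38. Leaving out 1 library moved r to between -0.68 and -0.01 for Adipoq, 0.04 and 0.74 for Retn, 0.22 and 0.55 for Lep, 0.0033 and 0.56 for Cfd, 0.13 and 0.72 for Nampt, 0.25 and 0.60 for Agt and -0.33 and 0.16 for Rbp4. The smallest adjusted p over the 7 was 0.718 for r and 0.765 for rho (two-sided exact permutation within groups). Without the 2 libraries farthest from the median marker level, r for Lep was 0.09 and for Retn 0.77 (exact p = 0.729 and 0.132). Within batch 1 (8 libraries), r was 0.07 for Lep, -0.70 for Adipoq, 0.70 for Retn, 0.65 for Cfd, -0.75 for Rbp4, 0.21 for Nampt and 0.78 for Agt. Its 16 permutations allow no exact p below 0.125, so that no relation could pass there.

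**Figure D5:**
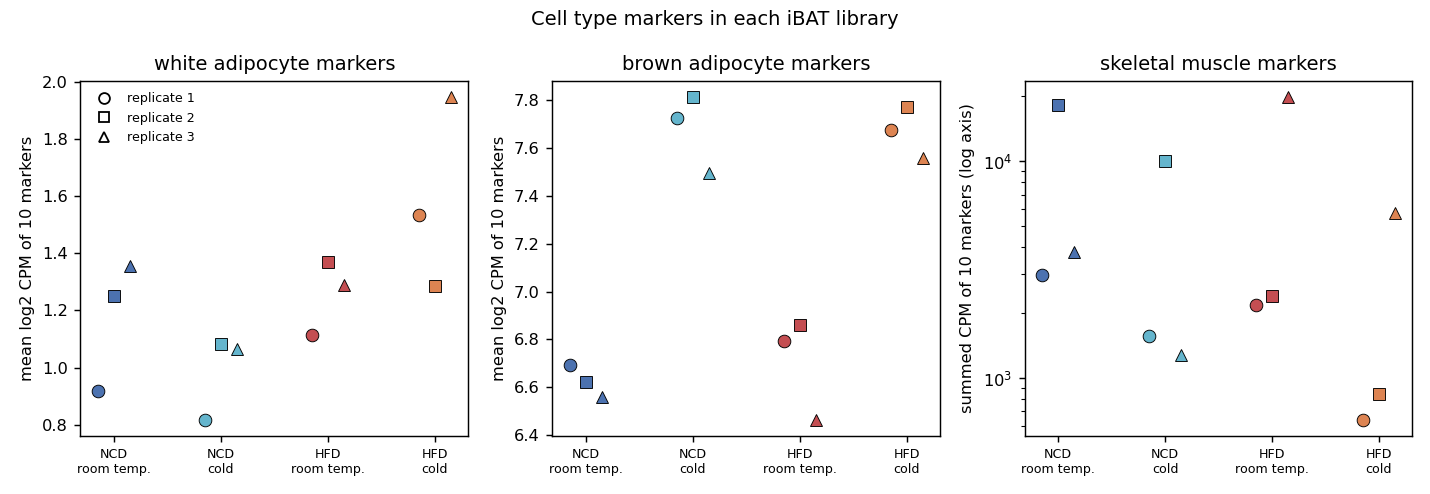
Mean log2 CPM of the white (left) and brown (middle) adipocyte markers and summed CPM of the skeletal muscle markers (right, log axis) in the 4 groups, with 1 point for each library and the marker giving the replicate. The brown markers split by temperature, the white markers of the HFD cold libraries (1.29 to 1.95) lie above those of the NCD cold libraries and overlap those at room temperature, and 1 library a group is rich in muscle markers.

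Brown adipocyte markers moved with cold. Ucp1, the deiodinase Dio2 and the fatty acid elongase Elovl3 rose on both diets, and Ppargc1a rose on NCD by 2.25 log2 units (adjusted p = 0.0202 in edgeR). Dio2 rose by 2.86 on NCD and 2.62 on HFD, and Elovl3 by 2.69 and 2.76 (adjusted p of 0.000227 to 0.000498). Ucp1 also rose with HFD at room temperature by 0.74 (adjusted p = 0.0484). Cidea, Prdm16, Zic1, Lhx8, Ebf2 and Cox7a1 passed none of the 4. The summed pan-adipocyte markers were 18473 to 20831 CPM on NCD in the cold and 13680 to 16089 CPM on HFD in the cold, where 2 of 10 were lower and 0 higher. Summed macrophage markers were 63.2 to 91.2 CPM on NCD in the cold and 84.1 to 199.995 CPM on HFD in the cold, with 2 of 7 higher in that comparison and 1 of 7 higher in cold on HFD. Of 5 neutrophil markers, 1 of the 2 tested was higher in cold on HFD, where the sum reached 11.2 CPM in replicate 1 against 1.497 and 1.492 CPM in the others. The part of these cells in the adipokine differences was not tested.

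With the skeletal muscle marker level as a covariate, the 4 calls of cold on HFD and those of Retn and Rbp4 for HFD in the cold were kept. In the 8 libraries left without the muscle-rich library of each group, an alternative chosen after the data had been seen, Lep and Retn passed for cold on HFD, Retn and Cfd for HFD at room temperature and Rbp4 for HFD in the cold. Adipoq and Rbp4 then had log2 fold changes of -0.71 and -1.24 for cold on HFD (adjusted p = 0.0983 and 0.0589), and Retn had -0.77 for HFD in the cold (adjusted p = 0.107).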

How the data were processed

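The 12 libraries hold paired-end reads of total iBAT RNA after removal of ribosomal RNA. The authors used cutadapt for trimming and salmon for quantification (GENCODE M22 with RNAcentral 5, GRCm38), and deposited expected counts per gene, summed from transcripts, as whole numbers without normalization. Tool versions and the strand setting are not given in the sources used here. Replicates were not pooled, and no comparison columns were present. Totals of 15136861 to 46740702 counts limit low genes such as Agt, and counting error allows up to 3 counts where a library holds 0.

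Genes were kept by filterByExpr (minimum count 10), scaled by TMM and fitted with edgeR 4.0.16 (R 4.3.3) by its quasi-likelihood test, with 4 group means, all 12 libraries and no covariate, and p-values were adjusted by Benjamini-Hochberg over 16737 genes. Log2 CPM used a prior count of 2. Lengths were merged exons of GENCODE M21. Correlations and marker levels used exact permutations in Python 3.11.15. The edgeR fit of the group means was tested on simulated data with changes placed in NCD in the cold, and the other steps were not. Named genes were the 7 adipokines, the resistin-like genes, all white and brown markers, from each list at most 3 genes passing with the largest change per comparison and the one with the highest mean CPM, and the 3 genes most like each adipokine. The members and lists were chosen with earlier results of these data known.

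Libraries with the same number at room temperature and in the cold deviated together from their group means (r of 0.155 to 0.456 in all 6 pairs within diet), so a fit with the number as a block within diet is given beside the unpaired test where it changes a cold call. Different numbers gave r of -0.289 to 0.0439 on NCD and -0.268 to 0.134 on HFD. On HFD, replicates 1 and 2 were hardly set apart by number. Replicate 1 at room temperature gave 0.155 with replicate 1 in the cold and 0.134 with replicate 2. Whether the libraries are true pairs is not given. On each diet, the highest r joined the libraries richest in muscle markers (0.456 for replicate 2 on NCD, 0.386 for replicate 3 on HFD). The muscle-rich libraries at room temperature gave r = 0.374 across diets, though numbered 2 on NCD and 3 on HFD. The part of muscle in the pairing was not tested. Across diets the same numbers gave r of -0.211 to 0.365, so they were not treated as pairs for HFD. Alternatives were DESeq2 1.42.0, its size factors in edgeR, totals without TMM, no count filter, a mean of at least 10 counts, batch or replicate number as a term, the number as a block within diet or temperature, batch 1 alone, the 6 libraries compared, marker levels as covariates, no minimum fold change and each library left out.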

Additional observations from a re-analysis of the deposited data

Results flagged for a closer look

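The cold difference of Retn was marked because every library in the cold lay below every library at room temperature on NCD, and above on HFD. The log2 fold changes were -0.59 and 0.88, and the test of their difference gave 1.47 (edgeR's quasi-likelihood test, unadjusted p = 8.62e-05, adjusted p = 0.16). Among the 7 adipokines and 130 list and marker genes examined in this way, Retn was the single gene marked. Groups of 3 libraries were not examined for single outlying libraries.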

How the results depend on the processing

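Retn for HFD at room temperature kept its call in all settings and in all 12 fits without 1 library, as did Lep for cold averaged over diets. Adipokine counts that moved by over 1.5 times were these. DESeq2 passed 2 for cold on NCD, 2 for HFD at room temperature, 1 for the interaction and 4 in the 4-group test, and no count filter passed 2, 2, 1 and 3. Of all genes, DESeq2 passed 1452, 819, 51 and 2625 in that order, against 1049, 349, 0 and 427 in the main fit. No count filter passed 1062, 515, 27 and 1082 of 37458 genes. Batch 1 alone passed 1 for cold on NCD, 1 for cold on HFD, 0 for HFD in the cold, 1 for cold averaged over diets and 0 in the 4-group test. Of all 16587 genes tested there, it passed 352, 416, 53, 1694 and 0 in that order. The main fit passed 1049, 1603, 795, 2123 and 427 of 16737. The 6 libraries compared passed 2 for cold on HFD (855 of all genes) and 0 for HFD in the cold (149). The white marker covariate passed 0 for both of these (795 and 13 of all genes) and 1 for HFD averaged over temperatures (436, against 1305 in the main fit). The muscle covariate passed 2 for HFD at room temperature (516 of all genes), and totals without TMM 1 for HFD in the cold (2443). The 8 libraries poorer in muscle passed 2, 2 and 1 for cold on HFD, HFD at room temperature and HFD in the cold, 1 for cold averaged over diets and 0 in the 4-group test. Of all genes, they passed 731, 72, 384, 1706 and 11 in that order. Without 1 library the counts were 0 to 1 for cold on NCD (490 to 1112 of all genes) and 1 to 4 for cold on HFD (1013 to 1672). For HFD they were 1 to 2 at room temperature (117 to 369) and 0 to 2 in the cold (239 to 992). For the averaged comparisons they were 2 to 3 for cold (1837 to 2123) and 3 to 4 for HFD (938 to 1331). The cause of these moves was not tested, apart from the fewer libraries in some fits.

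The replicate block within diet passed 2 adipokines for cold on NCD and changed no other call of a cold comparison. The block within temperature, where the numbers do not pair libraries, passed 2 for HFD at room temperature (319 of all genes) and 1 for HFD in the cold (482). The replicate block over all libraries changed no adipokine count and gave 1 pass for adiponectin assembly, 1 for its paralogs, 0 for the resistin-like genes, 5 for NAD salvage and 2 for renin-angiotensin.

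List passes over the 4 comparisons were 3 for receptors, 2 for adiponectin assembly, 0 for its paralogs, 1 for resistin-like, 2 for complement, 2 for retinol, 3 for NAD salvage, 1 for renin-angiotensin and 4 for other adipokines. The settings below also moved the calls over all genes, by differing amounts. DESeq2 gave 3 for paralogs, 2 for resistin-like, 4 for complement, 5 for NAD salvage, 2 for renin-angiotensin and 7 for other adipokines. Totals without TMM, which shift the median log2 fold change of all genes to 0.22 for HFD at room temperature and 0.31 for HFD in the cold, gave 6 for receptors, 2 for paralogs, 0 for resistin-like, 6 for retinol, 5 for NAD salvage, 3 for renin-angiotensin and 7 for other adipokines. No count filter gave 1 for assembly, 2 for paralogs, 2 for resistin-like and 4 for retinol. The muscle covariate gave 0 for resistin-like, 5 for NAD salvage and 2 for renin-angiotensin. The white marker covariate gave 1 for receptors, 1 for assembly, 1 for other adipokines and 0 for resistin-like and complement. The 8 libraries poorer in muscle gave 1 for assembly, 1 for other adipokines and 0 for resistin-like and complement. Batch 1 alone gave 0 for receptors, assembly, resistin-like, complement and other adipokines, batch as a term 1 for assembly and 0 for resistin-like, and a mean of at least 10 counts or the 6 libraries compared 0 for resistin-like. Without 1 library the lists gave 1 to 3 for receptors and assembly, 0 to 1 for paralogs and resistin-like, 0 to 2 for complement, 2 to 4 for retinol and NAD salvage, 1 to 2 for renin-angiotensin and 2 to 6 for other adipokines. For assembly it was 1 in all of these fits but that without replicate 2 of HFD in the cold.

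Differences that had not passed changed sign. Lep for HFD at room temperature was 0.10 without TMM, 0.18 with batch as a term, 0.19 with the replicate block, 0.50 in batch 1, 0.36 in the 8 libraries poorer in muscle and up to 0.31 without 1 library (lowest -0.46). Lep for HFD in the cold was 0.41 in batch 1 and -1.43 to 1.02 without 1 library, and its interaction 0.027 with the block within temperature and -1.33 to 1.13 without 1 library. Adipoq for HFD at room temperature was 0.093 without TMM. Cfd for cold on HFD was 0.17 in batch 1 and in the 8 libraries, and -0.63 to 0.015 without 1 library. Nampt for cold on HFD was -0.0098 to 0.35 without 1 library. With the Hoxc genes and Tcf21 alone, which apart from Hoxc8 were near the detection limit, the white marker level differed by -0.15 for cold on HFD, -0.026 for HFD at room temperature and -0.045 for HFD in the cold. Without 1 library it was -0.044 to 0.18 for HFD at room temperature, and the within-group r of Rbp4 with the white markers was -0.33 to 0.16.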

Other observations

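Agt, the rarest of the adipokine transcripts, varied against Adipoq and Rbp4 between replicates. The deviations of its log2 CPM from the group means gave r = -0.84 with Adipoq and r = -0.78 with Rbp4 over the 12 libraries, and r = 0.63 with Cfd. Its most similar genes were C7 (r = 0.94 within groups), Aebp1 (0.92) and Retreg1 (0.92). On NCD at both temperatures and on HFD at room temperature, the library richest in muscle markers had the highest Agt (1.69, 1.53 and 2.12 CPM). The same libraries had the lowest Adipoq of their groups (560, 461 and 531 CPM). On HFD in the cold both held for replicate 1 instead (1.04 and 286 CPM), where replicate 3 was the muscle-rich one. The part of muscle was not tested. With 4 to 75 counts of Agt a library the values of r are a description with no test.

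Of 6 stromal progenitor markers, 2 were lower in cold on NCD and 0 passed in the rest of the 4 comparisons. Averaged over diets, 2 were lower with cold (6.6% of all genes), and averaged over temperatures, 2 were lower with HFD (3.55%). Their median log2 fold change in cold on NCD was -0.59, and their sum was 411 to 592 CPM at room temperature and 244 to 313 CPM in the cold. The part of these cells in the adipokine differences was not tested. Of 5 endothelial markers tested, 1 was higher in cold on NCD and 1 in HFD at room temperature (median log2 fold changes of 0.32 and 0.47). Of 3 hepatocyte markers tested, 1 was lower in cold on NCD and 1 higher in HFD in the cold, at a sum of 1.65 to 6.04 CPM over all libraries. Of the pan-adipocyte markers, 3 of 10 were higher in cold on NCD and 1 lower in HFD at room temperature. Erythroid and skeletal muscle markers passed 0 of 5 and 0 of 10 in the 4 comparisons by edgeR, with muscle medians of -0.98 for cold on NCD and -1.82 for cold on HFD, and the mesothelial markers, with at most 0.819 CPM in sum, were not tested.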
